A study of Solanum lycopersicum with 95 samples.

Results

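The genes described here are 10 tomato genes that make or break down gibberellins, fixed by their gene IDs. The choice was made with earlier results of these data known. They are GA20ox1 (Solyc03g006880), GA20ox2 (Solyc06g035530), GA20ox3 (Solyc11g072310), GA20ox4 (Solyc01g093980), GA3ox1 (Solyc06g066820), GA3ox2 (Solyc03g119910), GA2ox1 (Solyc05g053340), GA2ox2 (Solyc07g056670), GA2ox4 (Solyc07g061720) and GA2ox5 (Solyc07g061730). All 10 were found among the 34075 genes of the count table, which held 95 RNA-seq libraries of leaf (47) and fruit (48) of tomato (Solanum lycopersicum) cultivar Foundation. Plants received 258 µmol m-2 s-1 of photosynthetic light, and from 63 days after sowing the vegetative organs of the Leaf FR plants also received 77 µmol m-2 s-1 of far-red (FR), while No FR plants received none. A curtain kept the added far-red from the fruits. The 0 h samples were taken before any far-red was given. Leaves and fruits were sampled at 0, 6, 12, 24, 48 and 96 h, and fruits were 10 days past anthesis at the start. Sampling fell 4 h into the photoperiod at 0, 24, 48 and 96 h, but 10 h into it at 6 h and 16 h into it at 12 h. Each of the 24 groups had 4 libraries, except the Leaf FR leaves of 12 h with 3.

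Gibberellins promote stem elongation, leaf growth and the early growth of fruits after fertilization. GA 20-oxidases (GA20ox) carry out the successive oxidations that lead to the direct precursors of the active hormone, and GA 3-oxidases (GA3ox) carry out the last activating step. GA 2-oxidases (GA2ox) inactivate the hormone or its precursors. In many plants the active hormone lowers transcripts of GA20ox and GA3ox genes and raises those of GA2ox genes, and far-red-rich light promotes elongation partly through this pathway.

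Total counts ranged from 14769415 to 17845503 in leaf libraries and from 15631659 to 17957406 in fruit libraries. Levels are given in CPM, the counts of a gene relative to the normalized size of its library, on which 3 counts correspond to between 0.148 and 0.319 CPM in leaves and between 0.136 and 0.161 CPM in fruits. The CPM is not corrected for gene length, so values were compared within a gene only. The 5 carpel and fruit marker genes summed to between 428 and 591 CPM in the fruits of 6 to 96 h and to between 2.82 and 14.6 CPM in the leaves. The biological coefficient of variation was 32.6% to 39.9% in the leaf comparisons and 12.5% to 15.8% in the fruit comparisons of Leaf FR with No FR. The leaf library least like the rest of its group was replicate 2 of No FR at 12 h (r = 0.895 with the mean of the others across genes, against a median of 0.968 over the leaf libraries). In the leaf the fit over 6 to 96 h, the light by time fit and the No FR time course were also run without it.

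GA20ox2 was the only gibberellin gene that edgeR called between the light treatments at a single time point, and it was called in the leaf at 6, 24, 48 and 96 h. At 0 h, before any far-red, edgeR called 0% of all genes in the leaf and DESeq2 0.121% (21 genes). At 6 h the level of GA20ox2 was 0.433, 1.19, 2.14 and 4.05 CPM in the No FR leaves, and 22.9, 13.0, 33.0 and 23.1 CPM in the Leaf FR leaves. The Leaf FR libraries were thus all above the No FR libraries, with a ratio of the means of 11.8. By edgeR's quasi-likelihood test GA20ox2 was upregulated with a Log2FC of 3.59 (standard error 0.58) and an adjusted P-value of 0.0493, and it was the only one called of the 6 gibberellin genes tested. For comparison, 0.365% of all 18085 genes tested at that time were called. This call was close to the threshold and was lost without any 1 of 6 of the 8 libraries. It was kept without No FR replicate 4 or Leaf FR replicate 2, and the adjusted P-value was lowest without No FR replicate 4 (0.0292) and highest with No FR replicate 3 left out (0.167). DESeq2 gave 9.24e-08, where it called 2.83% of all genes. Because RNA came from leaflets and fruits and not from single cell types, a change in the number of cells of a type and a change in RNA per cell cannot be told apart.

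The GA20ox2 libraries of the treatments did not overlap at any later time point either. The share of all genes without overlap was 5.13% at 6 h, and at 12, 24, 48 and 96 h it was 2.87%, 3.84%, 5.62% and 6.93%. At 12 h the No FR leaves held 0.840, 0.241, 0.0614 and 0 CPM, and the 3 Leaf FR leaves 13.7, 10.4 and 15.0 CPM. No library of one treatment reached those of the other, and the Log2FC was 5.38 (standard error 0.88). The adjusted P-value of edgeR was 0.647 at 12 h, where 0.00548% of all genes were called and where 1 group had 3 libraries, whereas DESeq2 gave 8.78e-07 (0.117% of all genes called) and a single edgeR fit over all time points of the leaf gave 5.33e-05 (0.109% called). Without No FR replicate 2 of 12 h, the library that stood apart, the Log2FC was 5.30 and the edgeR adjusted P-value 0.800.

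At 24 h GA20ox2 was at 1.69, 0.408, 0.0829 and 0.183 CPM under No FR and at 32.6, 25.1, 67.3 and 46.5 CPM under Leaf FR (Log2FC 6.08, standard error 0.69, edgeR adjusted P-value 0.0127). It was the only gibberellin gene called at this time, against 0.188% of all genes, and the call was lost without No FR replicate 2 (adjusted P-value 0.0921) or 4 (0.0588). At 48 h the No FR leaves held 0.277, 0.0940, 0.0868 and 0.147 CPM and the Leaf FR leaves 21.6, 57.0, 23.0 and 30.4 CPM (Log2FC 7.60, standard error 0.50, edgeR adjusted P-value 0.0016; 0.0795% of all genes called). At 96 h the No FR leaves held 0.0866, 0.251, 0.232 and 0.287 CPM and the Leaf FR leaves 46.6, 30.4, 28.3 and 30.3 CPM (Log2FC 7.22, standard error 0.32, edgeR adjusted P-value 6.59e-05; 0.263% of all genes called). The summed counts over the 4 libraries of a group were 8 under No FR and 1565 under Leaf FR at 48 h, and 11 and 1725 at 96 h. The ratio of these sums, corrected for library size, was 194 at 48 h (95% exact interval 98.0 to 449) and 153 at 96 h (85.5 to 308), where the intervals cover counting error only. From 12 h on GA20ox2 met the minimum of 10 counts in 3 libraries only through the Leaf FR leaves. Without any such minimum the edgeR adjusted P-values of 12, 24, 48 and 96 h were 0.557, 0.00654, 7.47e-04 and 2.50e-05. DESeq2 called GA20ox2 at 24, 48 and 96 h as well (adjusted P-values 3.88e-17, 8.17e-28 and 3.54e-44), and among all genes it called 1.52%, 1.44% and 2.59%.

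**Figure D1:**
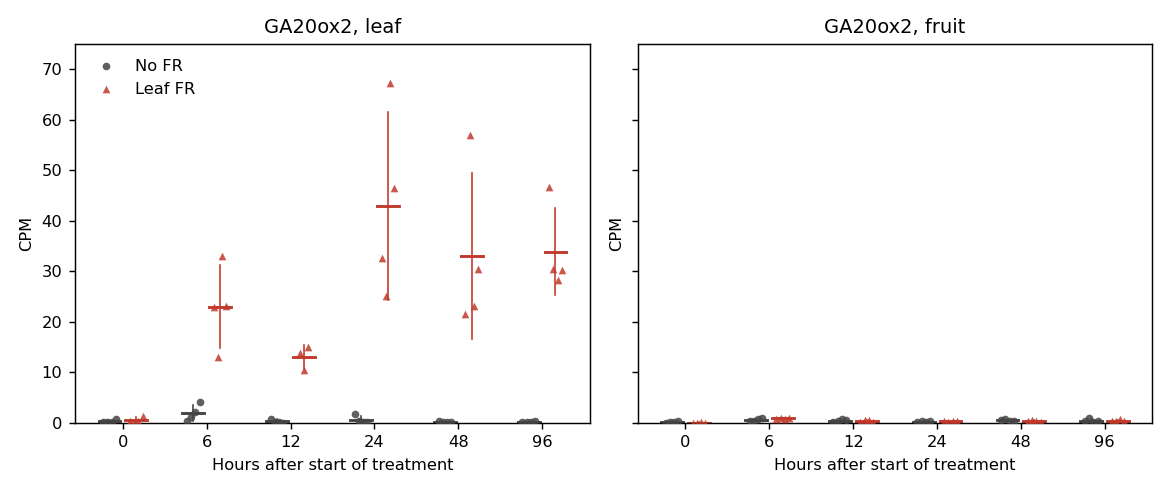
Level of GA20ox2 in each leaf library (left) and fruit library (right), in CPM, against hours after the start of treatment. Circles are No FR and triangles Leaf FR libraries, with the mean (bar) and SD (line) of 4 libraries (3 for leaf Leaf FR at 12 h). From 6 h on the Leaf FR leaves lie between 10.4 and 67.3 CPM and the No FR leaves at 4.05 CPM or less, while fruits stay at 1.01 CPM or less.

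Before the treatment the leaves of both sets of plants had little GA20ox2. At 0 h the plants that were to remain under No FR had 0.186, 0.0842, 0.167 and 0.758 CPM and those that were to receive Leaf FR 0.335, 0, 0.418 and 1.44 CPM, and the gene did not meet the minimum of counts for a test. The light effect of GA20ox2 in the leaf changed over time (light by time interaction, edgeR adjusted P-value 0.0253; 0.093% of all genes called), and it was the only one of the 8 gibberellin genes tested for which this was so. Relative to 0 h, the difference between treatments was larger by 6.82 on the log2 scale at 48 h (edgeR adjusted P-value 0.0257; 0.062% of all genes called) and by 6.44 at 96 h (adjusted P-value 0.0231; 0.0724% called). The overall call was lost without the libraries numbered 2, 3 or 4 (adjusted P-value up to 0.541) and was kept without those numbered 1 and without the leaf library that stood apart (0.0290). Within the Leaf FR leaves the means were 23.0, 13.0, 42.9, 33.0 and 33.9 CPM at 6, 12, 24, 48 and 96 h, and the library ranges of 24, 48 and 96 h overlapped.

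In a fit over all leaf libraries of 6 to 96 h with time as a covariate, GA20ox2, GA3ox1 and GA2ox2 were called higher under Leaf FR, among 8 of the 10 gibberellin genes that met the minimum of counts (4.11% of all 19273 genes were called, and 2.63% were called higher). GA3ox1 met the minimum only through the Leaf FR leaves, where 7 of 19 libraries reached 10 counts against 1 of 20 under No FR. GA20ox2 had a mean difference of 5.66 on the log2 scale (standard error 0.38, edgeR adjusted P-value 2.39e-13), GA3ox1 of 2.96 (standard error 0.47, 4.65e-05) and GA2ox2 of 1.65 (standard error 0.38, 0.00666). Without the leaf library that stood apart, the differences were 5.64, 2.94 and 1.66, and all 3 calls were kept. For GA2ox2 the adjusted P-value was above the threshold without the libraries numbered 2 (0.0559) or 4 (0.0726).

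GA3ox1, which acts in the activating step, was close to the detection limit in No FR leaves and low in Leaf FR leaves. The 20 No FR leaf libraries of 6 to 96 h ranged from 0 to 0.544 CPM (median 0.0787), with 7 libraries at 0, and the 19 Leaf FR libraries from 0 to 3.06 CPM (median 0.601), with 1 library at 0. The summed counts were 31 under No FR and 256 under Leaf FR, a ratio of 8.59 after correction for library size (95% exact interval 5.90 to 12.9, counting error only). At 6 h the No FR leaves held 0.0619, 0.140, 0.189 and 0.133 CPM and the Leaf FR leaves 2.55, 0.613, 1.49 and 0.344 CPM, which did not overlap, but too few libraries reached 10 counts for a test. At 96 h the No FR leaves held 0.173, 0, 0, and 0 CPM, from 2 counts in all, and the Leaf FR leaves 0.431, 2.41, 3.06 and 1.33 CPM, from 97 counts. These sums gave a ratio of 47.4 with a wide exact interval (12.8 to 397). The gene met the minimum of counts through the Leaf FR leaves alone, and the edgeR adjusted P-value was 0.0995 at that time and 0.00749 in the single fit over all time points, in which 0.656% of all genes were called. At 24 h GA3ox1 was at 0.0770, 0, 0 and 0 CPM under No FR and at 0.423, 0.398, 0.882 and 0.329 CPM under Leaf FR. These did not overlap, but counts were again too few for a test. At 12 h the ranges of GA3ox1 overlapped, with 0 to 0.544 CPM under No FR and 0 to 0.834 CPM under Leaf FR. They overlapped at 48 h as well, with 0.0694 to 0.188 CPM under No FR and 0.152 to 1.22 CPM under Leaf FR.

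GA3ox2, the other gene of the activating step, was measured in every leaf library and edgeR called none of its light comparisons. It was at 28.7, 26.7, 27.3 and 12.0 CPM under No FR at 48 h and at 12.0, 11.1, 14.9 and 12.3 CPM under Leaf FR (Log2FC −0.93, standard error 0.27, edgeR adjusted P-value 0.434). All No FR libraries but replicate 4 were above the Leaf FR libraries, and replicate 4 was among them. In the fit over 6 to 96 h the difference was −0.87 on the log2 scale (standard error 0.31, adjusted P-value 0.116), and DESeq2 gave 0.0497 (6.05% of all genes called). The fit included the leaf library that stood apart, in which GA3ox2 reached 34.3 CPM against 1.49 to 4.30 CPM in the other No FR leaves of 12 h. Without it the difference was −0.59 (standard error 0.23, adjusted P-value 0.146).

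**Figure D2:**
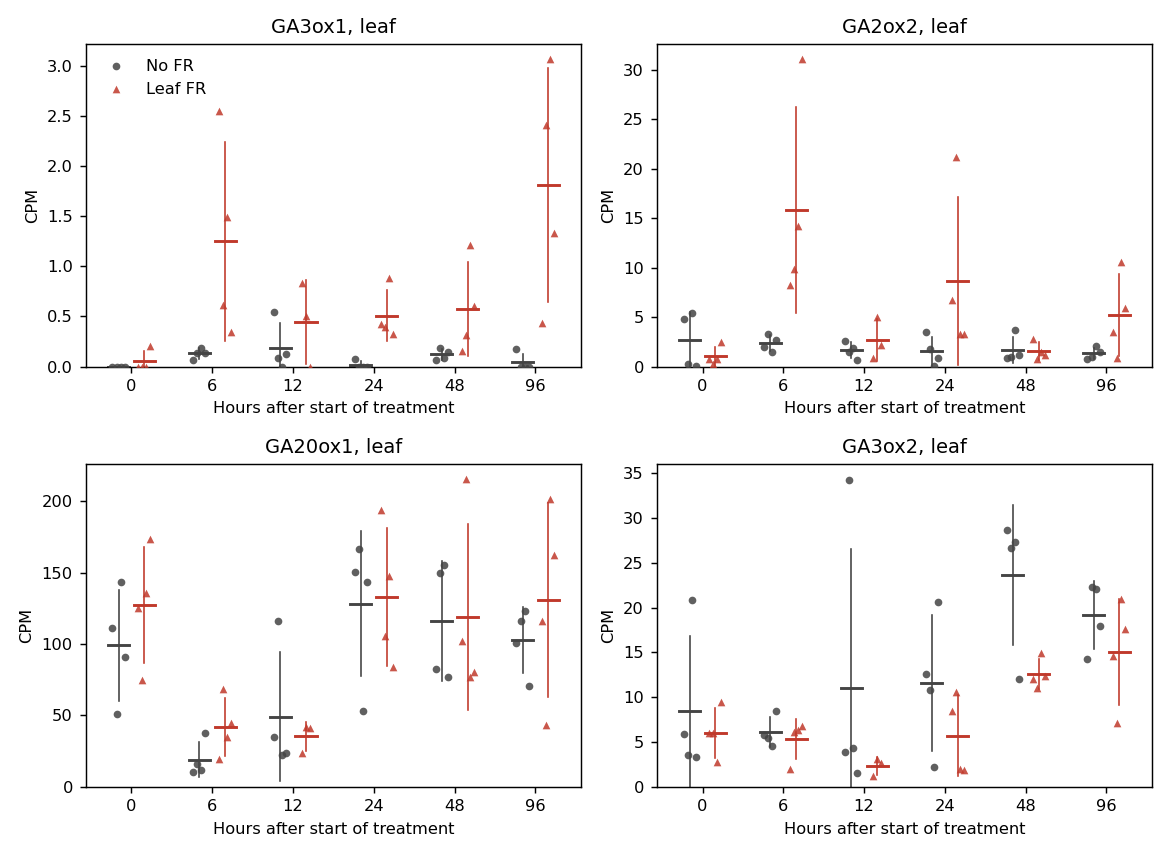
Levels of GA3ox1, GA2ox2, GA20ox1 and GA3ox2 in each leaf library, in CPM, against hours after the start of treatment (circles No FR, triangles Leaf FR, bars means, lines SD). GA3ox1 and GA2ox2 are higher under Leaf FR at 6 h with no overlap, GA20ox1 overlaps between the treatments at every time, and 1 No FR library at 12 h holds 34.3 CPM of GA3ox2.

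Among the inactivating enzymes, GA2ox2 rose under Leaf FR in the leaf in the fit over all times, with its largest difference at 6 h. Its levels at 6 h were 1.98, 3.30, 1.45 and 2.72 CPM under No FR and 8.23, 9.87, 14.2 and 31.0 CPM under Leaf FR, a ratio of the means of 6.71. The treatments did not overlap, as for 5.13% of all genes, and the Log2FC was 2.78 (standard error 0.47). The edgeR adjusted P-value at 6 h was 0.060, and that of DESeq2 1.67e-06. At 12 h the ranges overlapped (0.620 to 2.57 CPM under No FR and 0.834 to 4.98 CPM under Leaf FR). At 24 h the levels were 3.46, 1.74, 0.0829 and 0.913 CPM under No FR and 6.76, 21.2, 3.33 and 3.29 CPM under Leaf FR (Log2FC 2.47, standard error 0.90, edgeR adjusted P-value 0.563).

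At 48 h GA2ox2 was nearly equal in the treatments, with a mean of 1.65 CPM under No FR and 1.56 CPM under Leaf FR (Log2FC −0.07, standard error 0.58). At 96 h it was at 0.780, 1.00, 2.09 and 1.43 CPM under No FR and at 3.45, 0.828, 10.6 and 5.90 CPM under Leaf FR (Log2FC 1.97, standard error 0.69, edgeR adjusted P-value 0.345). Leaf FR replicate 2 was then within the No FR range and the other 3 were above it. The change of the GA2ox2 difference with time was not called (light by time, adjusted P-value 0.653).

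GA2ox4 differed between the treatments in the leaf at 96 h only by DESeq2. The No FR leaves held 2.08, 2.18, 1.93 and 2.08 CPM and the Leaf FR leaves 4.05, 3.45, 19.9 and 5.32 CPM, without overlap, as for 6.93% of all genes (Log2FC 2.00, standard error 0.58). The edgeR adjusted P-value was 0.262 and that of DESeq2 0.0319 (2.59% of all genes called). Leaf FR replicate 3 was far above the other Leaf FR leaves, and without it the Log2FC was 1.03.

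GA2ox1 was low in the leaf, at 2.11 CPM or less in all 47 libraries. At 48 h it was at 0.555, 0.188, 0.521 and 0.957 CPM under No FR and at 1.90, 1.49, 1.08 and 0.902 CPM under Leaf FR (Log2FC 1.22, standard error 0.47, edgeR adjusted P-value 0.578). Leaf FR replicate 4 lay just below the highest No FR library, and GA2ox1 met the minimum of counts at 48 h only through the Leaf FR leaves. GA2ox5 was at 1.73 CPM or less in the leaf and was at 0 in 12 of 47 libraries.

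For GA20ox1, another gene of the precursor-forming steps, edgeR called no light comparison in the leaf. At 6 h it was at 10.6, 16.2, 11.8 and 37.3 CPM under No FR and at 19.4, 68.4, 34.8 and 44.4 CPM under Leaf FR (Log2FC 1.17, standard error 0.47, edgeR adjusted P-value 0.491). The ranges overlapped through No FR replicate 4 and Leaf FR replicates 1 and 3. In the fit over 6 to 96 h the difference was 0.24 on the log2 scale, with a 95% interval from −0.25 to 0.73. Without the leaf library that stood apart it was 0.39 (standard error 0.21, edgeR adjusted P-value 0.332). GA20ox3 was at 0 in 38 of the 47 leaf libraries and never above 0.334 CPM, and GA20ox4 was at 0 in 12 and never above 0.875 CPM, so that neither was tested for a light effect in the leaf.

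**Figure D3:**
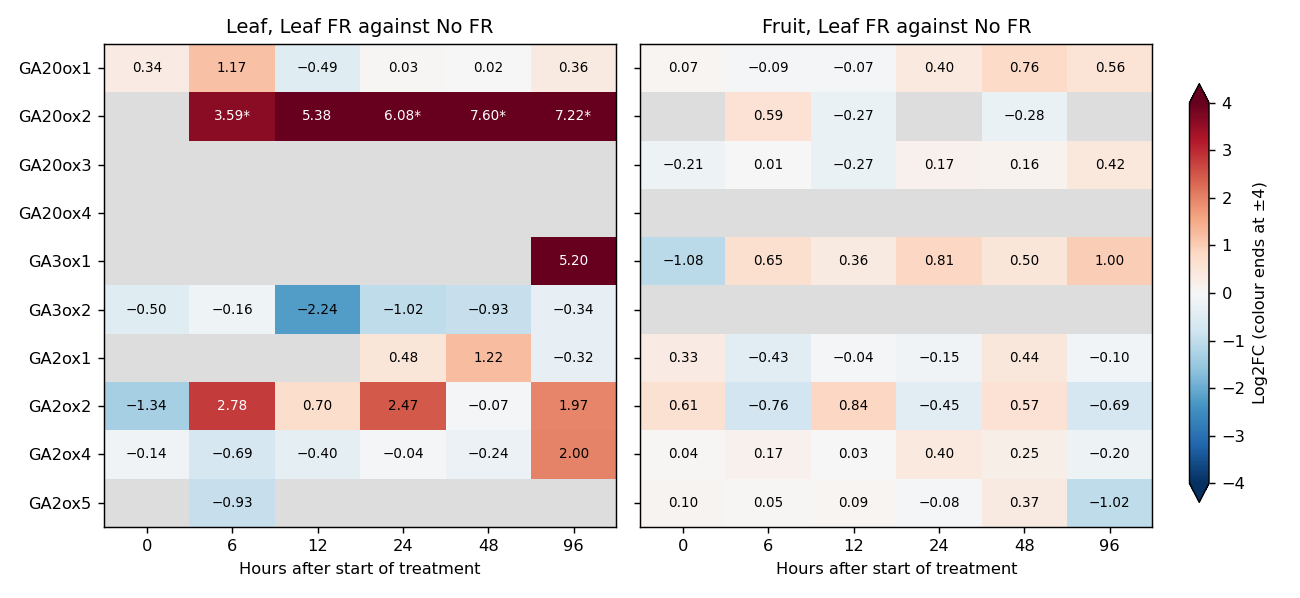
Log2FC of Leaf FR against No FR for each gibberellin gene (rows) at each time in hours (columns), in leaf (left) and fruit (right). Red is higher and blue lower under Leaf FR, grey marks genes with too few counts for a test, and an asterisk marks an edgeR adjusted P-value under 0.05. The 4 asterisks are all on GA20ox2 in the leaf, at 6, 24, 48 and 96 h, and no fruit value has one.

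The time course under No FR alone shows how these genes behaved without added far-red. In the leaf 3 of the 7 gibberellin genes tested changed over the 6 time points (33.8% of all 18943 genes were called). GA20ox1 had 111, 50.7, 143 and 91.1 CPM at 0 h and fell to the 10.6 to 37.3 CPM of 6 h (difference −2.38 on the log2 scale, standard error 0.53, edgeR adjusted P-value 0.00207; 13.8% of all genes called lower), and at 24, 48 and 96 h it was again at 53.2 to 167 CPM. GA20ox2 was higher at 6 h than at 0 h also without far-red (difference 2.66, standard error 0.93, adjusted P-value 0.0385; 11.8% of all genes called higher), and at 24, 48 and 96 h its difference from 0 h was not called (0.0475%, 0% and 0% of all genes). GA2ox5 was at 0.928, 0.140, 0.503 and 1.73 CPM at 6 h and at 0.0928 CPM or less at 0 h (difference 3.99, standard error 1.13, adjusted P-value 0.0118). Neither GA20ox2 nor GA2ox5 reached 10 counts in any No FR leaf library of 0 h. With the libraries of 1 replicate number left out, 1 of the 7 genes was called in place of 3, whichever number it was, and without the library that stood apart 4 were called, with GA3ox2 added (adjusted P-value 0.00654). Hours after the start and hours into the photoperiod cannot be told apart at 6 and 12 h.

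In the fruit none of the gibberellin genes was called by edgeR in any comparison of Leaf FR with No FR, and 8 of all 18438 genes (0.0434%) were called at 96 h and 0% at each other time. With an unadjusted P-value under 0.05 there were 1, 0, 1, 2, 2 and 3 gibberellin genes at the 6 successive time points, among 7 or 8 tested at each, and the shares of all genes were 1.36%, 3.38%, 2.75%, 4.85%, 7.54% and 18.6%. DESeq2 called 1 gibberellin gene at 48 h, another at 96 h and 0 at 0, 6, 12 and 24 h. At 24 and 48 h, however, it gave an adjusted P-value to 1 gibberellin gene only (GA20ox1), and to 6243 and 4855 of all genes. Its shares of the genes with an adjusted P-value, in the same order, were 0.0055%, 0%, 0.00546%, 0.0801%, 0.144% and 5.77%. At 24 and 48 h the calls were 5 and 7 genes, where 18317 and 18442 genes met the minimum of counts.

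GA20ox1 was the gene DESeq2 called at 48 h, and its Log2FC was positive from 24 h on. At 24 h it was at 52.9, 42.4, 40.1 and 51.7 CPM under No FR and at 60.0, 48.3, 71.7 and 66.9 CPM under Leaf FR (Log2FC 0.40, standard error 0.13, edgeR adjusted P-value 0.972), where only Leaf FR replicate 2 was within the No FR range. At 48 h it was at 55.6, 44.1, 42.6 and 45.4 CPM under No FR and at 70.7, 63.4, 97.7 and 86.8 CPM under Leaf FR. The treatments did not overlap at 48 h, as for 4.59% of all genes, and the edgeR 95% interval of the fold was 1.37 to 2.08. The adjusted P-values differed between the tests, with 0.651 by edgeR (0.455 to 0.997 with single libraries left out) and 6.67e-04 by DESeq2.

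At 96 h GA20ox1 was at 73.3, 37.3, 55.2 and 65.4 CPM under No FR and at 101, 76.3, 74.2 and 93.1 CPM under Leaf FR, again without overlap (Log2FC 0.56, standard error 0.19, edgeR adjusted P-value 0.165, DESeq2 0.0663). At this time 11.2% of all genes did not overlap. At 0, 6 and 12 h the Log2FC was between −0.09 and 0.07. The change of the difference with time was not called (light by time, edgeR adjusted P-value 0.712), nor was the difference over 6 to 96 h (0.32 on the log2 scale, standard error 0.10, adjusted P-value 0.274). Both tests called 0% of all genes in the fruit.

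GA20ox3 was counted almost only in the fruit, and its light comparisons were not called. At 96 h it was at 19.5, 14.5, 15.7 and 21.4 CPM under No FR and at 29.2, 21.3, 22.5 and 22.5 CPM under Leaf FR (Log2FC 0.42, standard error 0.15, edgeR adjusted P-value 0.177). Leaf FR replicate 2 and No FR replicate 4 were nearly equal, and they made the ranges overlap. GA20ox2, the gene with the large difference in the leaf, was at 1.01 CPM or less in all 48 fruit libraries, and at 48 h its Log2FC in the fruit was −0.28 (standard error 0.36). GA20ox4 was at 0.624 CPM or less in the fruit and GA3ox2 at 0.872 CPM or less, and neither was tested for a light effect there.

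The inactivating enzyme GA2ox5 did not overlap between the treatments in the fruit at 96 h, as for 11.2% of all genes, and its call depended on the test. It was at 15.7, 14.0, 13.4 and 13.1 CPM under No FR and at 5.24, 9.96, 7.84 and 4.93 CPM under Leaf FR, and the mean under Leaf FR was 0.497 of that under No FR. The Log2FC was −1.02 (standard error 0.20). Its adjusted P-value was 0.0754 by edgeR, 0.0451 in the single fit over all time points (2.66% of all genes called) and 4.95e-04 by DESeq2 (5.77% called). Leaving out single libraries moved the edgeR value to between 0.0142 (without Leaf FR replicate 2) and 0.217 (without Leaf FR replicate 4).

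The time course of GA2ox5 in the No FR fruits is part of this comparison. At 0 h it was at 5.42, 5.75, 7.72 and 4.54 CPM in fruits that were to remain under No FR, and at 96 h it had risen by 1.26 on the log2 scale (standard error 0.30, edgeR adjusted P-value 0.00941; 7.32% of all genes called higher). In the Leaf FR group the mean was 6.27 CPM at 0 h and 6.99 CPM at 96 h (n = 4 each). The change of the light difference with time was not called (edgeR adjusted P-value 0.736).

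GA2ox4 rose in the No FR fruits as well, from 5.47, 4.35, 7.09 and 2.49 CPM at 0 h to 11.9, 6.56, 14.1 and 14.7 CPM at 96 h (1.27 on the log2 scale, standard error 0.30, edgeR adjusted P-value 0.00941). Unlike GA2ox5, it overlapped between the treatments at 96 h, with 8.99, 11.9, 7.25 and 13.1 CPM under Leaf FR (Log2FC −0.20, standard error 0.25). GA2ox4 and GA2ox5 were the 2 of the 9 gibberellin genes tested that changed over time in No FR fruits (23.7% of all genes were called), and with the libraries of 1 replicate number left out between 0 (without number 1 or 3) and 2 of them were called. At 24 h GA2ox4 was at 4.73, 5.98, 4.94 and 4.66 CPM under No FR and at 5.86, 6.19, 6.87 and 7.93 CPM under Leaf FR (Log2FC 0.40, standard error 0.13, edgeR adjusted P-value 0.972), with a single No FR library among the Leaf FR values. Genes of these names are neighbours in the RefSeq assembly SLM_r2.1, and reads that match several genes were divided by the counting program, so the values of the pair are uncertain where the genes are alike. Across libraries their log2 levels had r = 0.67 in the 48 fruit libraries and r = 0.31 in the 47 leaf libraries, given as a description of values that share libraries.

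**Figure D4:**
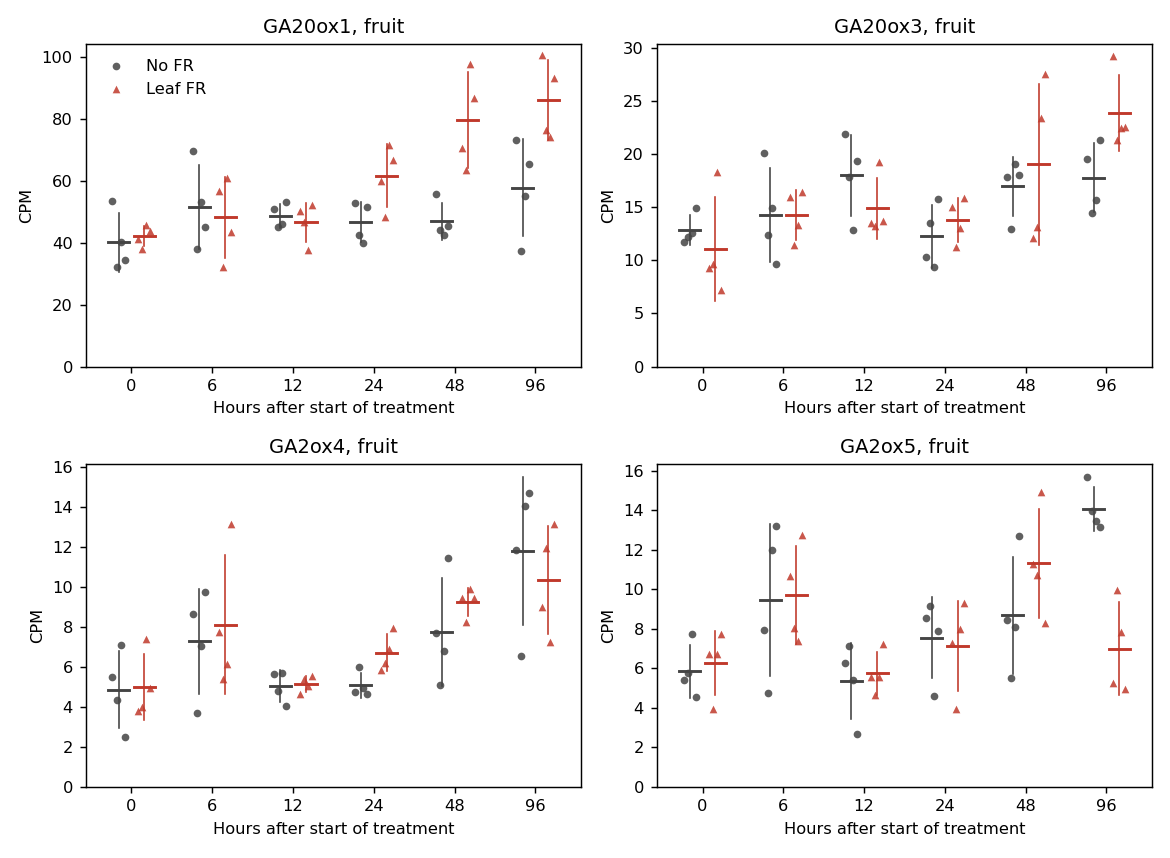
Levels of GA20ox1, GA20ox3, GA2ox4 and GA2ox5 in each fruit library, in CPM, against hours after the start of treatment of the leaves (circles No FR, triangles Leaf FR, bars means, lines SD). GA20ox1 is higher under Leaf FR at 48 and 96 h with no overlap, GA2ox5 is lower under Leaf FR at 96 h with no overlap, and GA2ox4 overlaps at 96 h.

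The other fruit comparisons were not called by edgeR. GA2ox2 was at 3.97, 6.15, 5.68 and 2.69 CPM under No FR at 12 h and at 7.36, 6.28, 11.7 and 7.84 CPM under Leaf FR, without overlap, as for 1.75% of all genes (Log2FC 0.84, standard error 0.27, edgeR adjusted P-value 1.00). Its Log2FC at 6, 24, 48 and 96 h was −0.76, −0.45, 0.57 and −0.69, so that its sign varied. GA2ox1 at 48 h was at 4.43, 4.45, 5.08 and 3.43 CPM under No FR and at 5.14, 6.13, 7.54 and 4.90 CPM under Leaf FR (Log2FC 0.44, standard error 0.17, edgeR adjusted P-value 0.651), and only Leaf FR replicate 4 was within the No FR range.

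GA3ox1 in the fruit did not overlap between the groups before the treatment began, but edgeR did not call it. At 0 h it was at 0.903, 0.699, 0.482 and 0.748 CPM in the No FR group and at 0.287, 0.209, 0.476 and 0.356 CPM in the Leaf FR group, without overlap, as for 1.23% of all genes (Log2FC −1.08, standard error 0.34, edgeR adjusted P-value 1.00). These plants had then received the same light. From 6 h on the Log2FC of GA3ox1 was positive at each time, between 0.36 and 1.00, and no adjusted P-value was under 0.05. The gene met the minimum of counts only through the No FR fruits at 0 h. At 12, 24 and 96 h it did so only through the Leaf FR fruits.

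The light effect was compared directly between the organs at 48 and 96 h. Leaf and fruit libraries of the same plant could not be linked by the labels, and these tests treated all libraries as independent. For GA20ox2 the Log2FC in the fruit was lower than that in the leaf by 7.89 at 48 h (standard error 0.66, edgeR adjusted P-value 5.54e-05) and by 7.24 at 96 h (standard error 0.69, 6.37e-05). It was the only gibberellin gene of 9 tested that was called by edgeR in either comparison (0.131% of all genes at 48 h and 0.511% at 96 h). GA20ox2 met the minimum of counts for the comparison of 96 h only through the Leaf FR leaves, the group where it was high. In that group 4 of 4 libraries reached the minimum, against 0 of 4 No FR leaves and 1 of 4 fruits under each treatment. For GA2ox2 and GA2ox4 at 96 h the Log2FC in the fruit was also below that in the leaf, by 2.64 (standard error 0.83, edgeR adjusted P-value 0.173) and by 2.19 (standard error 0.67, 0.159), and DESeq2 called both (0.0490 and 0.0394, with 3.17% of all genes called). The GA2ox4 difference included Leaf FR leaf replicate 3 at 19.9 CPM, where the other Leaf FR leaves of 96 h were at 3.45 to 5.32 CPM. For GA20ox1 the 95% interval of the difference at 48 h, fruit minus leaf, ran from −0.21 to 1.70, so that a difference between organs was not shown.

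Most genes differed between the organs before the treatment, and so did those of this set that could be tested. At 0 h, with 8 libraries of each organ, the 8 gibberellin genes that met the minimum of counts were called between fruit and leaf, where 81.9% of all 19532 genes were called. Of these 8, GA20ox3, GA3ox1, GA2ox1 and GA2ox5 met it only through the fruit and GA3ox2 only through the leaf, and GA20ox2 and GA20ox4 were not tested. For the biosynthetic genes, GA20ox1 was lower in the fruit (32.2 to 53.6 CPM) than in the leaf (50.7 to 173 CPM) by 1.40 on the log2 scale (standard error 0.19, edgeR adjusted P-value 3.35e-06). GA20ox3 was at 7.16 to 18.3 CPM in the fruit and at 0 in 7 of 8 leaf libraries, with a ratio of the summed counts, 1938 in the fruit and 4 in the leaf, of 268 (95% exact interval 105 to 985, counting error only).

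The GA3ox genes divided between the organs, and each met the minimum of counts only through the organ where it was higher. GA3ox2 was at 2.72 to 20.9 CPM in the leaf and at 0.0537 to 0.813 CPM in the fruit, where it was lower by 4.85 on the log2 scale (standard error 0.55, edgeR adjusted P-value 3.56e-07). GA3ox1 was at 0.209 to 0.903 CPM in the fruit and had 2 counts in all in the 8 leaf libraries (ratio of sums 23.2, exact interval 6.23 to 195). All 4 GA2ox genes were higher in the fruit, as were 42.9% of all genes, but GA2ox1 and GA2ox5 were tested through the fruit libraries alone. GA2ox5 was higher by 6.61 on the log2 scale (standard error 0.37, adjusted P-value 3.49e-11), GA2ox1 by 2.82 (0.32, 2.73e-07), GA2ox2 by 1.83 (0.62, 0.0118) and GA2ox4 by 1.03 (0.30, 0.00443), where each bracket gives the standard error and the adjusted P-value.

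**Figure D5:**
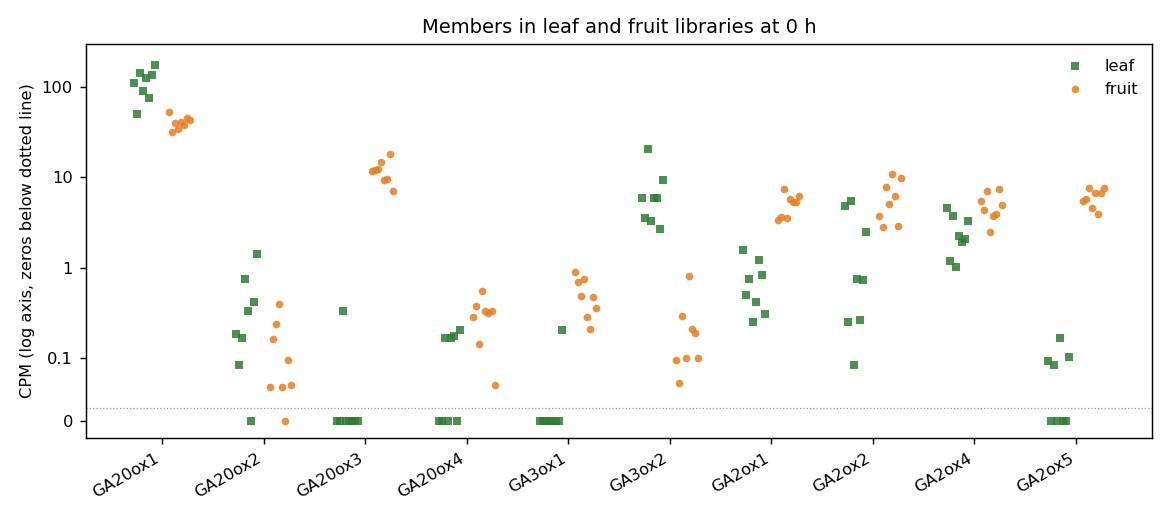
Level of each gibberellin gene in the 8 leaf (squares) and 8 fruit (circles) libraries of 0 h, in CPM on a log axis, with libraries at 0 drawn below the dotted line. GA20ox3 and GA2ox5 are high in the fruit and at or near 0 in the leaf, and GA3ox2 is the reverse.

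The gene with the most similar profile over the 24 group means (mean log2 CPM) is given for a few of these genes, as a description of values that share libraries. For GA20ox2 it was Solyc06g062460 (Pearson's r = 0.962), for GA20ox3 Solyc02g087970 (r = 0.998), for GA3ox2 Solyc03g097290 (r = 0.988) and for GA2ox5 Solyc07g053360 (r = 0.990). For GA20ox4, the least counted, the highest r was 0.72.

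Other genes of the gibberellin pathway were taken from a list of 13 IDs, of which 12 were in the count table. In the leaf 1 of the 9 tested at 6 h was called (0.365% of all genes), Solyc02g089350, which was upregulated. It was at 47.9, 93.3, 140 and 143 CPM under No FR and at 482, 508, 602 and 845 CPM under Leaf FR (Log2FC 2.55, standard error 0.37, edgeR adjusted P-value 0.0366), without overlap, as for 5.13% of all genes. Leaving out single libraries moved this adjusted P-value to between 0.0361 and 0.120. In the fit over 6 to 96 h, 3 of the 11 tested were called in the leaf (4.11% of all genes), 1 higher (2.63% of all genes) and 2 lower (1.48%). Solyc02g089350 was higher by 1.64 on the log2 scale (standard error 0.25, adjusted P-value 2.69e-05), Solyc06g008870 lower by 0.79 (0.16, 0.00131) and Solyc09g074270 lower by 0.93 (0.28, 0.0467). The last call was lost without the libraries numbered 1 (adjusted P-value 0.399) or 4 (0.193), and that of Solyc06g008870 without those numbered 1 (0.0568). In the fruit edgeR and DESeq2 called 0 of the 10 tested at any time, although DESeq2 gave an adjusted P-value to only 5 of them at 24 and 48 h. The number with an unadjusted P-value under 0.05 was highest, at 3, at 24 h (4.85% of all genes) and at 96 h (18.6%).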

How the data were processed

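Leaf and fruit were sampled from 4 plants per treatment and time, with no plant sampled again, and 1 leaf sample was excluded by the authors for RNA quality. The deposited expected counts, whole numbers in the file, were made by the authors with SOAPnuke, Bowtie2 and RSEM against ITAG4.0. The normalized table was not used. The genes and lists were chosen with earlier results of these data known.

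Genes reaching 10 counts in 3 or more fitted libraries were tested with edgeR 4.0.16 in R 4.3.3 (TMM, quasi-likelihood, Benjamini-Hochberg over all genes, threshold 0.05), per organ and time, over 6 to 96 h with time as covariate, and for interactions with time or organ. Alternatives were DESeq2 1.42.0, DESeq2 size factors, no filter, a replicate block, robust dispersion, one fit over all times, and each library left out. Leaving out the leaf library least like its group was chosen after seeing the data. The fits were tested on simulated data. Levels are CPM on TMM library sizes over all 95 libraries.

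All genes of the set were named, with every library's value where treatments did not overlap, the unadjusted P-value was under 0.05 or DESeq2 called the gene. Pathway genes were named where edgeR called them. No libraries of a group agreed within sampling noise (lowest chi-square per degree of freedom 5.59, 141 pairs).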

Additional observations from a re-analysis of the deposited data

Results flagged for a closer look

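In 11 of 141 groups of 4 libraries, for a gene with a mean of at least 10 counts, 1 library lay far from the other 3, where chance marks about 1 in 20 groups. Replicate 2 of the No FR leaves of 12 h, the library that stood apart over all genes, was the highest for GA20ox1 (116 CPM, the next 34.6) and for GA3ox2 (34.3 CPM, the next 4.30). In other leaf groups, GA3ox2 was highest in No FR replicate 3 of 0 h (20.9 CPM, the next 5.94), lowest in Leaf FR replicate 1 of 6 h (2.03 CPM, the next 6.13) and lowest in No FR replicate 4 of 48 h (12.0 CPM, the next 26.7). GA20ox2 was highest in Leaf FR replicate 1 of 96 h (46.6 CPM, the next 30.4), GA2ox2 in No FR replicate 3 of 48 h (3.64 CPM, the next 1.18) and GA2ox4 in Leaf FR replicate 3 of 96 h (19.9 CPM, the next 5.32).

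In the fruit, GA20ox3 was highest in Leaf FR replicate 3 of 12 h (19.2 CPM, the next 13.7) and in Leaf FR replicate 1 of 96 h (29.2 CPM, the next 22.5), and GA2ox1 in No FR replicate 3 of 0 h (7.43 CPM, the next 3.65).

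For GA20ox2 the light effect itself differed between groups of samples. It changed with time in the leaf (edgeR adjusted P-value 0.0253), and the Log2FC of the fruit minus that of the leaf was −7.89 at 48 h and −7.24 at 96 h. The fruit counts of GA20ox2 at 96 h were too few for a test in the fruit alone. For the comparison of organs at 96 h the gene met the minimum of counts only through the Leaf FR leaves.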

How the results depend on the processing

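The number of gibberellin genes called depended on the test. DESeq2 called 2 genes in place of 1 in the leaf at 6 h, 1 in place of 0 at 12 h and 2 in place of 1 at 96 h, 1 in place of 0 in the fruit at 48 and at 96 h, 3 in place of 1 for light by organ at 96 h, and 4 in place of 3 both over 6 to 96 h in the leaf (GA3ox2 added, adjusted P-value 0.0497) and in the No FR leaf course (GA2ox1 added, 0.0305). One fit over all time points gave 1 in the leaf at 12 h, 2 in the leaf at 96 h and 1 in the fruit at 96 h. In the leaf at 6 h DESeq2 size factors and robust dispersion gave 0. Same-numbered libraries deviated together (r over 0.1) in all pairs in 0 of 12 comparisons, and numbers were not treated as pairs in the main test. In the leaf at 6 h and the fruit at 48 h, however, 3 of 4 pairs did so. Over all genes of the leaf, a replicate block gave 199 calls at 6 h in place of 66. At 12, 24, 48 and 96 h it gave 0, 19, 3 and 17 in place of 1, 33, 14 and 46. With the replicate block the number of gibberellin genes called was 2 in the leaf at 6 h and 0 at 24 h. There GA20ox2 had an adjusted P-value of 0.0660, and at 6 h GA2ox2 one of 0.0470. The block changed no other number called among the 10 gibberellin genes. Of the pathway genes, Solyc09g074270 was not called over 6 to 96 h in the leaf with the block (0.0545) or without the minimum of counts (0.0565).

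With single libraries left out, between 0 and 2 genes were called in the leaf at 6 h, between 0 and 1 at 24 h and between 0 and 1 in the fruit at 96 h. At 24 h GA20ox2 was not called without No FR replicate 2 (adjusted P-value 0.0921) or 4 (0.0588). With the libraries of 1 replicate number left out, the range was 0 to 1 for light by time in the leaf, 1 to 1 for the No FR leaf course and 0 to 2 for the No FR fruit course. None of the called differences changed direction under these alternatives.

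Over all genes the light comparisons of edgeR and DESeq2 gave 0 and 21 calls in the leaf at 0 h, before any far-red. They gave 66 and 510 in the leaf at 6 h, 1 and 21 at 12 h, 33 and 266 at 24 h, 14 and 253 at 48 h, 46 and 435 at 96 h, and 8 and 1063 in the fruit at 96 h. At low depth, GA20ox3, GA20ox4 and GA2ox5 in the leaf and GA20ox4 and GA3ox2 in the fruit could not be compared between treatments at most times, so a difference was not detectable there.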
